A study of Drosophila melanogaster with 84 samples.

Results

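Dh31 and CNMa are neuropeptide genes of the dorsal clock neurons of the Drosophila melanogaster brain. They were followed here as 2 of the 15801 genes counted in single sorted neurons. Of 8060 wells, 5001 held 1000 to 6000 genes and 6000 to 75000 unique molecular identifiers (UMIs, each a tag that marks 1 captured mRNA molecule) and were kept. In these wells the time course of both genes was read in 2 populations. The first, called AstC-VGlut wells, had at least 50 AstC and at least 8 VGlut transcripts per 10000 UMIs (TP10K) and held 464 wells. The second, called gl wells, had at least 1 gl UMI and under 30 TP10K of AstC and held 1493 wells. AstC encodes the neuropeptide allatostatin C, VGlut the vesicular glutamate transporter, and gl the transcription factor Glass, which the posterior dorsal neurons 1 (DN1p) need in development. The wells were thus chosen by measured levels of AstC, VGlut and gl. Dh31 and CNMa were singled out with earlier results of these data known, so the tests on them describe these libraries and are not independent support.

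All samples were adult neurons labelled by the Clk856-Gal4 driver, which marks most but not all clock neurons, carried with EGFP and sorted by fluorescence. LD flies were taken under cycles of light and darkness at ZT02, ZT06, ZT10, ZT14, ZT18 and ZT22 (zeitgeber time, in hours after lights on). DD flies, labelled DD3, had spent 3 days in constant darkness and were taken at the matching circadian times CT02 to CT22. There were 36 LD and 48 DD libraries, and the flies had no stated treatment beyond the light regime. Per the study's methods the saline for dissection held the compounds DNQX, TTX and APV, and the brains were digested with papain. Libraries of 1 time point whose titles share a number were summed as 1 batch, which gave 14 LD and 14 DD batches. These carried only 6 different numbers in LD and 10 in DD, as batches of different time points could share a number. The main rhythm fits and the permutation tests took each batch as independent and made no allowance for shared numbers. No such number occurred in both LD and DD, so the light regime and the batch cannot be told apart. Nothing in the labels says that batches came from separate fly cultures, so p-values measure the spread between these batches.

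DH31 is the fly relative of the calcitonin family of peptides. It acts through the class B receptor encoded by Dh31-R, and in DN1p neurons it is known for its part in the control of sleep and of temperature preference. CNMamide, the product of CNMa, is a short amidated peptide with a G protein-coupled receptor encoded by CNMaR. Both are made as precursors that enzymes cut and trim before the peptides are packed in dense core vesicles, so a level of mRNA is not a level of released peptide.

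Depth ran from 191993 to 4259643 UMIs per library, with a median of 17302 UMIs per kept well in LD and 13702 in DD. Of the 7 dorsal neuron markers listed, AstC and VGlut chose the AstC-VGlut wells. Of the other 5, gl averaged 2.90 ± 1.59 TP10K there (SD, n = 26 batches) and ham 1.64 ± 0.64, each the highest of all classes of wells. For gl this rank was partly set by the well rule. Wells with a gl UMI and under 30 TP10K of AstC went to the gl wells, which kept gl low in classes formed after them. D was at 2.25 ± 1.07 TP10K, a level also seen in ITP-rich (2.18) and Trissin-rich wells (2.26). CCHa1 was at 1.99 ± 4.43 TP10K and Rh7 at 0.295 ± 0.267, below the 1.13 TP10K of Rh7 in gl wells. A gl UMI was seen in 373 of the 464 wells. The glial markers repo and moody together were at 0.0899 ± 0.115 TP10K. The gl wells were a looser set, since 637 of the 1493 rested on exactly 1 gl UMI and 217 were also rich in Pdf, ITP, Trissin or CCHa1, peptides of other clock neurons. In them the summed level of 7 lateral neuron markers was 102 ± 48.4 TP10K (n = 28 batches), against 34.5 ± 19.7 in the AstC-VGlut wells. The part of such RNA from other cells in the results on gl wells was not tested.

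In the annotation of the dm6 build Dh31 (FBgn0032048) spans chromosome 2L, 8491868 to 8506845, on the minus strand, and CNMa (FBgn0035282) spans chromosome 3L, 1850915 to 1855591, on the minus strand. Both are protein-coding, and UMIs were counted over their exons. The gene Bace lies within the span of Dh31 on the same strand and was not analysed here, so whether UMIs of Bace are among those counted as Dh31 was not tested. No gene overlaps CNMa. AstC is at chromosome 2L, 11076165 to 11081399, VGlut at 2L, 2400295 to 2410662, and gl at 3R, 18367927 to 18372738.

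In AstC-VGlut wells in LD, Dh31 was high in the early day and low at night. Its level, as TP10K of the summed UMIs of a batch, was 58.9 and 41.5 in the 2 batches of ZT02 and 56.4 and 42.9 at ZT06. At ZT10 it was 33.3, 23.9 and 20.1 TP10K in 3 batches. It was 4.44 and 5.60 TP10K at ZT14 and 3.19 and 3.32 at ZT18. At ZT22, still in darkness, it was 17.6 and 18.4 TP10K. Every batch of ZT02 and ZT06 thus lay above every batch of the other time points, and the ZT22 batches lay between those of ZT10 and of ZT14. The means of ZT02 and ZT18 were 50.2 ± 12.3 and 3.25 ± 0.0965 TP10K (SD, n = 2 batches each), a ratio of 15.4.

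CNMa ran the other way in the same wells. It was 4.72 and 4.91 TP10K in the batches of ZT02 and 4.67 and 6.43 at ZT06. By ZT10 it stood at 49.7, 41.0 and 71.7 TP10K. It was 62.0 and 69.0 TP10K at ZT14 and 48.8 and 67.7 at ZT18. The ZT22 batches had 25.7 and 39.4 TP10K. The 4 batches of ZT02 and ZT06 were the lowest of all 13. All 3 batches of ZT10 lay above every batch of ZT06, and the ZT22 batches lay between them. The highest mean, 65.5 ± 4.97 TP10K at ZT14 (SD, n = 2 batches), was 13.6 times the lowest, 4.81 ± 0.134 at ZT02.

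A cosine of 24 h was fitted to the summed UMIs of all genes with edgeR's quasi-likelihood test and Benjamini-Hochberg adjustment. A gene with an adjusted p under 0.05, time point means at least 1.5-fold apart and a highest mean of at least 0.8 TP10K was called cycling. Dh31 cycled with a difference of 4.23 between trough and peak of the fitted curve on the log2 scale and a peak at 4.57 h (adjusted p = 0.000585). CNMa cycled with a difference of 4.17 on the log2 scale and a peak at 15.2 h (adjusted p = 0.00939). Over all 3629 genes tested the median of this difference was 0.81, and 87 genes (2.4%) were called. Dh31 had the smallest p of all. The CNMa call rested on both batches of ZT02: the adjusted p was 0.0520 without batch 1 and 0.0538 without batch 2.

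**Figure D1:**
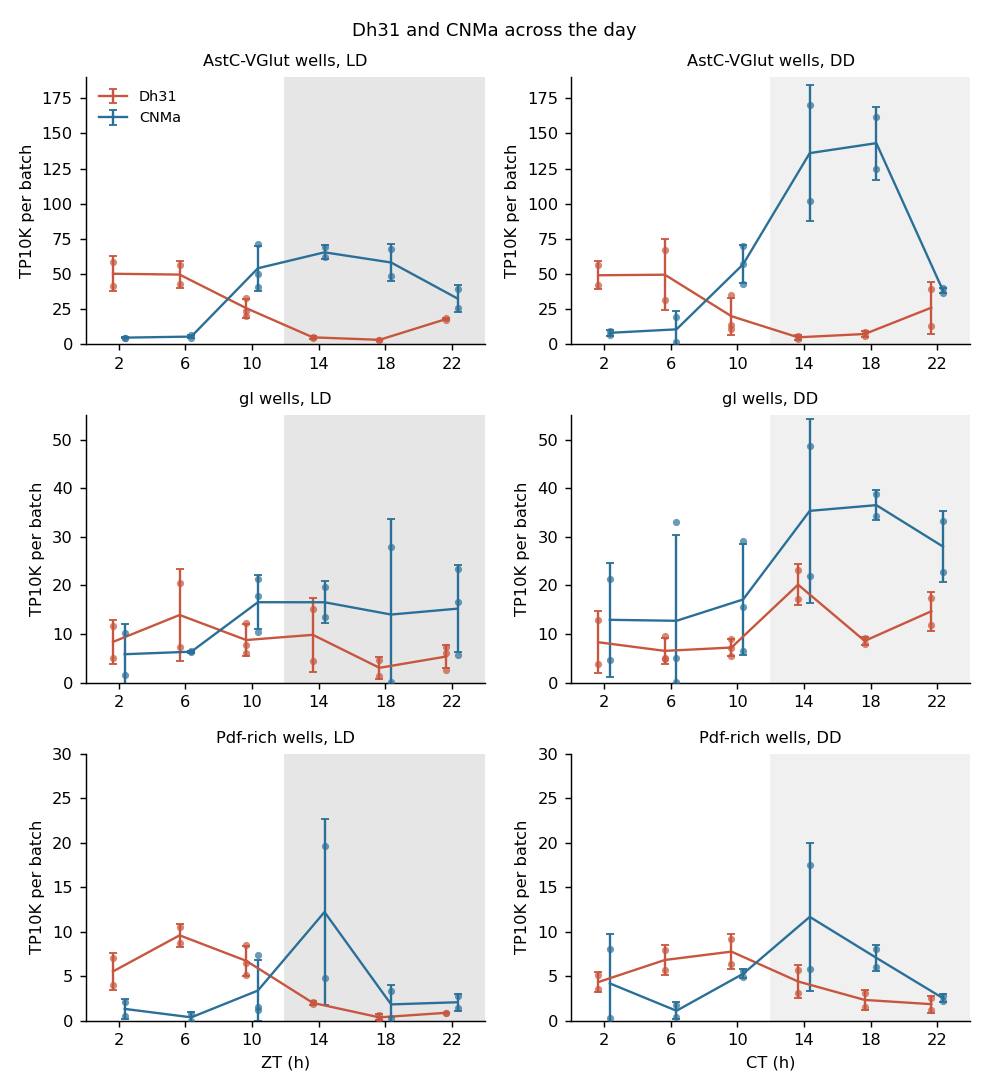
Level of Dh31 (red) and CNMa (blue) in TP10K against time of day, in AstC-VGlut wells, gl wells and Pdf-rich wells, in LD (left) and DD (right). Points are batches with at least 3 wells, lines join time point means, bars are ± 1 SD and grey marks the dark or subjective night phase. In AstC-VGlut wells the 2 genes lie in opposite parts of the day, with Dh31 means of 50.2 and 3.25 TP10K at ZT02 and ZT18 and CNMa means of 4.81 and 65.5 TP10K at ZT02 and ZT14.

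The order of the time points was alike in constant darkness. Dh31 stood at 42.0 and 56.3 TP10K in the batches of CT02 and at 67.4 and 31.7 at CT06. It was 13.996, 11.03 and 35.1 TP10K at CT10. The batches of CT14 had 6.25 and 3.82 TP10K and those of CT18 had 8.74 and 6.04. At CT22 the 2 batches were apart, at 13.1 and 39.1 TP10K. The batches of CT14 and CT18 were the lowest 4 of 13, while 1 batch each of CT10 and CT22 reached the level of the early subjective day.

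For CNMa the batches of CT02 held 9.85 and 6.65 TP10K, and those of CT06 held 19.7 and 1.73. At CT10 they held 43.3, 57.3 and 70.3 TP10K. The level was 102 and 170 TP10K at CT14 and 125 and 161 at CT18. It was 39.8 and 36.8 TP10K at CT22. The 4 batches of CT14 and CT18 lay above all other batches of either light regime, where the highest had 71.7 TP10K. Both genes cycled in DD, Dh31 with a log2 difference of 3.50 and a peak at 3.53 h (adjusted p = 0.00792 from edgeR) and CNMa with a log2 difference of 4.50 and a peak at 15.6 h (adjusted p = 0.00605). In DD 44 of 3261 genes tested (1.35%) were called. With time points as separate levels in place of the cosine neither DD call was kept, with adjusted p = 0.0669 for Dh31 and 0.0627 for CNMa.

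The levels of the DD batches were compared with those of the LD batches of AstC-VGlut wells, a difference in which light regime and batch cannot be told apart. At matched times Dh31 in DD minus LD was -0.09 on the log2 scale (SE 0.22, adjusted p = 0.916), and CNMa was 0.43 (SE 0.24, adjusted p = 0.445). In this comparison 52 of 4316 genes (1.2%) were called. These were 7 genes higher in DD (0.162%) and 45 lower. The scaling set that split: with library size in place of TMM the median of all genes moved from 0.01 to 0.26, with 102 higher and 23 lower, and Dh31 stood at 0.17, below that median. Taking each library as a unit in place of each batch gave 0.51 for CNMa (adjusted p = 0.0162). Libraries of 1 batch are not independent, so this p-value counts related libraries as separate units. A difference between the LD and DD curves was not detected for either gene, with adjusted p = 0.674 for Dh31 and 0.962 for CNMa. No gene was called (0%) by this test, and 351 of 4316 (8.13%) had an unadjusted p under 0.05.

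The 2 genes can also be set against each other within each batch, so that depth and library size drop out. In LD the log2 ratio of Dh31 to CNMa UMIs in AstC-VGlut wells ran from 2.74 to 3.64 in the 4 batches of ZT02 and ZT06. It ran from -1.83 to -0.58 at ZT10, from -4.35 to -3.62 at ZT14 and ZT18 and from -1.09 to -0.54 at ZT22. The values of ZT10 and ZT22 were close to each other, on the 2 sides of the night. Over the light phase (ZT02 to ZT10) the mean was 1.41 ± 2.36 (SD, n = 7 batches) and over the dark phase -2.88 ± 1.63 (n = 6), a difference of 4.29 (exact two-sided permutation test, p = 0.00932, 0.0245 adjusted over the 4 tests of this kind). In DD the means were 0.87 ± 2.52 (n = 7) and -3.26 ± 2.09 (n = 6), a difference of 4.13 (exact permutation p = 0.0122, adjusted p = 0.0245). Without batch 2 of CT14 or batch 2 of CT18 the adjusted p of the DD test was 0.0556 or 0.0505.

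**Figure D2:**
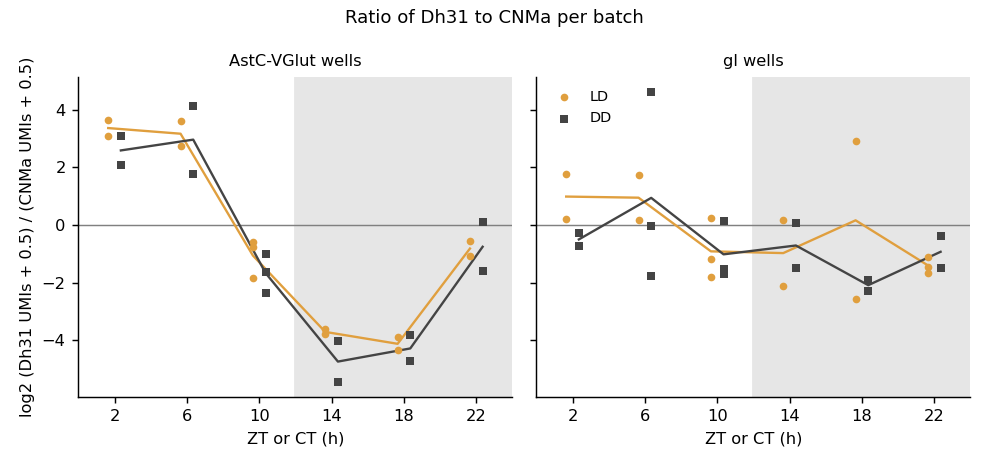
Log2 ratio of Dh31 to CNMa UMIs, with 0.5 UMI added to both, against time of day in AstC-VGlut wells (left) and gl wells (right). Points are batches in LD (circles) and DD (squares), lines join time point means, and grey marks the dark or subjective night phase. In AstC-VGlut wells the LD means of the light and dark phase are 1.41 and -2.88.

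Levels summed over a batch could stem from different wells at different times, so both genes were read in single wells. A well was called high for a gene at 10 TP10K or more. In AstC-VGlut wells in LD both were high in 90 of 245 wells (36.7%, 95% Clopper-Pearson interval 30.7 to 43.1%), Dh31 alone in 62, CNMa alone in 71 and neither in 22. In DD both were high in 107 of 219 wells (48.9%, 42.1 to 55.7%), Dh31 alone in 24, CNMa alone in 62 and neither in 26. Among Pdf-rich wells both were high in 2 of 197 in LD (1.02%) and 2 of 134 in DD (1.49%). Pdf-rich wells had at least 100 TP10K of Pdf, the peptide of the lateral ventral neurons, and fell in neither population. In the 118 gl wells that also had at least 100 TP10K of Pdf, both were high in 5.08%. Intervals cover counting error only, and wells are not replicates.

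The state of the single wells turned with the time of day. At ZT02 Dh31 alone was high in 32 of 37 wells and CNMa alone in none. At ZT10 both were high in 40 of 46 wells (87.0%, 73.7 to 95.1%). At ZT14 CNMa alone was high in 38 of 46 wells and both in 4, and at ZT18 CNMa alone was high in 28 of 34 and both in 1. At ZT22 both were again high in 34 of 41 wells (82.9%, 67.9 to 92.8%). The commonest state was thus Dh31 alone at ZT02 and ZT06, both at ZT10, CNMa alone at ZT14 and ZT18 and both again at ZT22. At no LD time point did a group with Dh31 alone stand beside a large group with CNMa alone.

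In DD the commonest state was Dh31 alone at CT02, both at CT06, CT10 and CT22 and CNMa alone at CT14 and CT18. Both were high in 11 of 28 wells at CT02, 10 of 20 at CT06, 34 of 50 at CT10, 5 of 33 at CT14, 15 of 44 at CT18 and 32 of 44 at CT22. At CT02 Dh31 alone was high in 15 wells, and at CT14 and CT18 CNMa alone was high in 24 and 26. At CT06 Dh31 alone was high in 8 wells, close to the 10 high in both. All 10 came from batch 1 of CT06, and no well of its batches 2 and 3 had more than 3.76 TP10K of CNMa. The median well at CT18 held 4.23 TP10K of Dh31 and 130 TP10K of CNMa, against 46.5 and 6.64 at CT02.

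**Figure D3:**
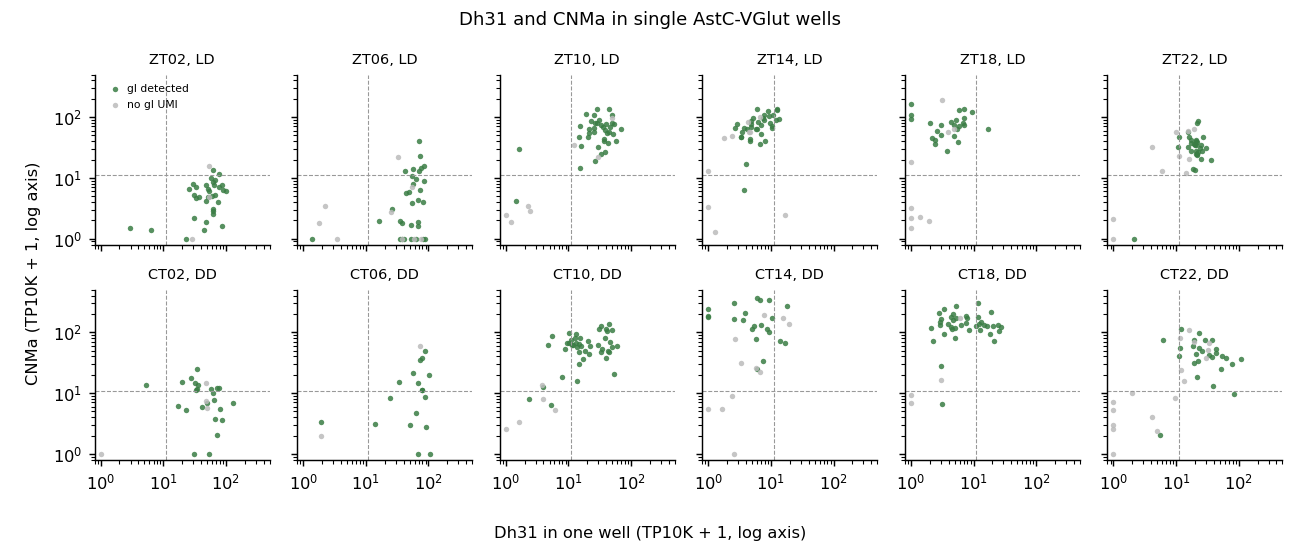
Dh31 (horizontal) against CNMa (vertical) in each AstC-VGlut well, both as TP10K + 1 on log axes, by time point in LD (top) and DD (bottom). Green wells had a gl UMI, grey wells none, and dashed lines mark 10 TP10K. The cloud of wells moves from the lower right at ZT02 to the upper right at ZT10, the upper left at ZT18 and back to the upper right at ZT22.

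Over all times the levels of the 2 genes in single AstC-VGlut wells were weakly opposed (Pearson r = -0.17 in LD over 245 wells and -0.08 in DD over 219, on log2(TP10K + 1)). Within a time point r was positive in every case, from 0.29 at ZT06 to 0.81 at ZT10 and from 0.18 at CT02 to 0.70 at CT10. The wells of a time point share batches, and wells low in both genes enter these values. By rank the correlation was lower at several times, at 0.15 at ZT22 and -0.22 at CT02.

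Wells low in both genes were mostly those without gl. Among the 373 AstC-VGlut wells with a gl UMI, 11 (2.95%) had neither gene high. Of the 91 without one, 37 (40.7%) had neither. Median depth was 17615 UMIs in the first and 10578 in the second, and the part of depth in this difference was not tested. The median levels were 19.8 TP10K of Dh31 and 45.1 of CNMa with gl, against 3.23 and 8.36 without. This split was made after the values were seen and was not tested. All 48 wells with neither gene high had a median depth of 15792.5 UMIs, against 15753 in the 197 wells high in both. Their medians were 0 TP10K of ham, 0 of D, 13.7 of VGlut and 193 of AstC. In wells high in both these were 1.45, 2.32, 33.9 and 142 TP10K. Whether the wells with neither gene high were another kind of cell was not tested.

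**Figure D4:**
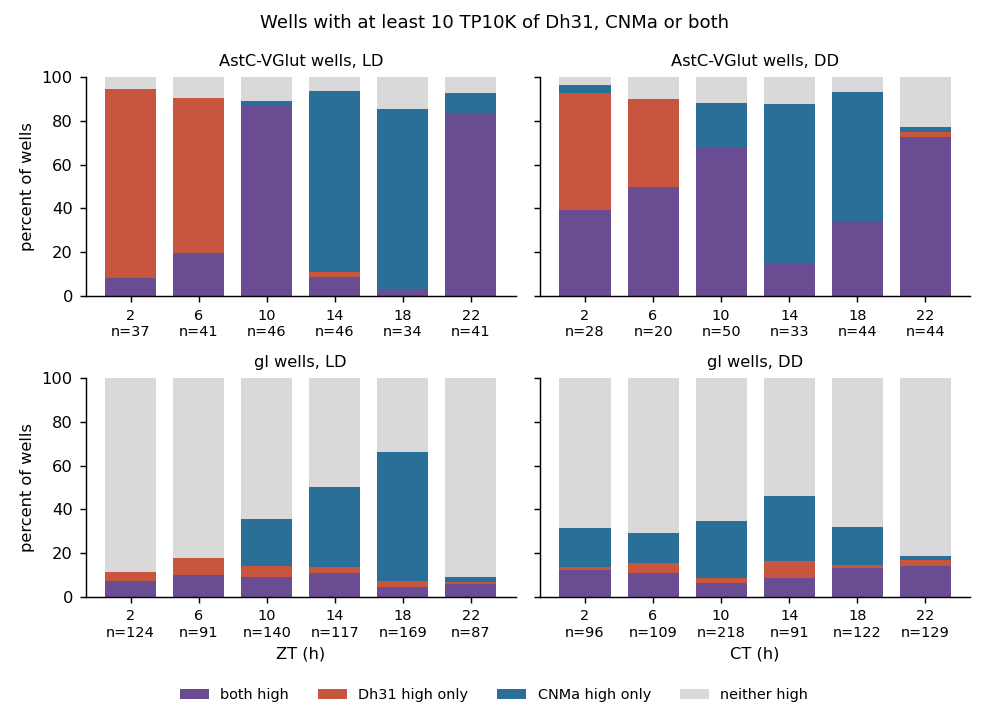
Percent of wells with at least 10 TP10K of both genes (purple), Dh31 alone (red), CNMa alone (blue) or neither (grey) by time of day, in AstC-VGlut wells (top) and gl wells (bottom), in LD (left) and DD (right), with the number of wells under each bar. In AstC-VGlut wells the purple share is 87.0% at ZT10 and 82.9% at ZT22.

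In gl wells, which had little AstC, neither gene was called cycling. Dh31 batches ran from 1.42 to 20.6 TP10K in LD with a median of 6.70, while in DD the batches lay between 3.79 and 23.1 with the middle at 9.10. The highest LD mean was 13.9 ± 9.38 TP10K at ZT06 and the lowest 3.04 ± 2.29 at ZT18 (SD, n = 2 batches each). In DD the highest mean, 20.2 ± 4.21 TP10K, was at CT14 (n = 2) and the lowest, 6.53 ± 2.72, at CT06 (n = 3). CNMa batches ran from 0.172 to 27.8 TP10K in LD with a median of 11.9, while in DD they lay between 0.166 and 48.7 with the middle at 22.4. The batches of 1 time point could lie far apart: CNMa was 0.172 TP10K in batch 1 of ZT18 and 27.8 in batch 2. In the same batches the wells outside both populations had 0.164 and 8.96 TP10K, so the gl wells and all other wells differed between these batches in the same direction.

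The fitted log2 differences in gl wells were 1.62 for Dh31 and 1.60 for CNMa in LD (adjusted p = 0.970 for both, edgeR) and 1.24 and 1.76 in DD (adjusted p = 0.962 for both). In LD only tim, the core clock gene timeless, was called of 5391 genes (0.0185%), with 268 (4.97%) at an unadjusted p under 0.05 and 25 cycling genes by DESeq2. None of 6044 was called in DD (0%), with 241 (3.99%) at an unadjusted p under 0.05 and 3 cycling by DESeq2. The DD count was higher with title numbers as a block, with each library as a unit or without the low-count filter, as given below. The ratio of Dh31 to CNMa in the light phase against the dark phase differed by 0.99 in LD (exact permutation p = 0.268, adjusted p = 0.275) and by 1.09 in DD (exact permutation p = 0.275, adjusted p = 0.275). In gl wells with at least 3 gl UMIs the LD difference was 1.68 (exact permutation, adjusted p = 0.0283), and without batch 1 of ZT18 it was 1.62 (adjusted p = 0.0451). With the level in Pdf-rich wells of the same batch subtracted the direction turned, to -4.86 in LD over 13 batches and -4.10 in DD over 12 (exact permutation, adjusted p = 0.0649 each), where 2 batches of Dh31 in each and 1 of CNMa in LD came out at 0. At matched times DD minus LD in gl wells was 0.11 on the log2 scale for Dh31 (SE 0.31, adjusted p = 0.907) and 0.60 for CNMa (SE 0.50, adjusted p = 0.581), in a test that called 171 of 7160 genes (2.39%), with 16.1% at an unadjusted p under 0.05. Of the called genes 31 were higher (0.433%) and 140 lower in DD, and with library size scaling 320 and 56, with the median of all genes at 0.31 in place of 0.04. The test of the LD against the DD curve gave adjusted p = 0.730 for Dh31 and 0.966 for CNMa, with no gene called (0%) and 462 of 6824 (6.77%) at an unadjusted p under 0.05.

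Whether the rhythms differed between the 2 populations was tested within batches, since the same batches hold both. The fitted curves of Dh31 differed by 3.26 on the log2 scale in LD (adjusted p = 3.15e-06, edgeR with batch as a block) and by 4.38 in DD (adjusted p = 2.25e-05). For CNMa the difference was 2.90 in LD (adjusted p = 0.0275) and 3.13 in DD (adjusted p = 0.000136). The test called 76 of 6772 genes (1.12%) in LD and 44 of 6309 (0.697%) in DD. Without the batch as a block no call held, with adjusted p = 0.610 for Dh31 and 0.999985 for CNMa in LD and 0.0541 and 0.950 in DD. The LD call of CNMa was also lost without any 1 of 7 batches of the 13, with adjusted p up to 0.261 without batch 1 of ZT02.

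In single gl wells, both genes were high in 57 of 728 in LD (7.83%, 5.98 to 10.03%) and in 80 of 765 in DD (10.5%, 8.38 to 12.9%), against 1.02% and 1.49% of Pdf-rich wells. The Pdf-rich class holds no gl wells, and of the 118 gl wells with at least 100 TP10K of Pdf 5.08% were high in both. The share of all gl wells high in both lay between 4.73% at ZT18 and 11.1% at ZT14 in LD and between 6.42% at CT10 and 13.95% at CT22 in DD, with intervals that overlapped. In the AstC-VGlut wells the same share ran from 2.94% to 87.0% in LD.

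The gl wells high in both held many transcripts of both peptides at all times. Their median Dh31 level ran from 29.1 TP10K at ZT14 to 72.8 at ZT02 in LD and from 35.4 at CT10 to 64.4 at CT22 in DD. Median CNMa ran from 45.5 TP10K at ZT06 to 132 at ZT18 and from 88.4 at CT02 to 223 at CT18. These medians rest on 5 to 18 wells per time point, and wells were chosen by the genes themselves, so they are a description. At ZT02 the 9 such wells had a median of 65.5 TP10K of CNMa, where the 37 AstC-VGlut wells had 4.23. The 37 wells were not chosen by either gene, and only 3 of them were high in both. The choice of wells thus set the direction of this difference, and it does not compare the 2 populations.

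By other genes the gl wells high in both also differed from the rest, as a description without a test. Their median gl level was 3.34 TP10K and VGlut 30.0, against 0.748 and 7.91 in the 314 gl wells high in CNMa alone and 1.12 and 8.79 in the 991 high in neither. Median AstC was 3.78 TP10K in the 137 wells high in both and 10.1 in those high in CNMa alone. Of the wells high in CNMa alone 100 came from ZT18, where 63.9% of gl wells had 10 TP10K or more of CNMa. All 100 lay in batch 2 of ZT18, which had 154 gl wells. The 15 gl wells of batch 1 held 4 CNMa UMIs in all, too few for any of them to be high. The correlation of the 2 genes across single gl wells was 0.52 in LD over 728 wells and 0.63 in DD over 765 (Pearson r of log2 values). The share of wells high in both grew with gl, from 2.67% of the 637 wells with 1 gl UMI and 5.31% of 245 with 2 to 17.5% of 611 with 3 or more.

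Across all classes of kept wells the AstC-VGlut wells had the highest level of both genes. Dh31 averaged 25.5 ± 19.95 TP10K (SD, n = 26 batches) there, 9.19 ± 5.46 in gl wells (n = 28), 5.65 ± 3.93 in wells of no class (n = 28) and 4.49 ± 3.04 in Pdf-rich wells (n = 25). It was 2.67 ± 3.05 TP10K in wells rich in AstC with less VGlut (n = 21) and 2.23 ± 1.33 in Rh7-positive wells (n = 20). In wells rich in CCHa1, ITP or Trissin it was 1.39 ± 1.25, 1.25 ± 1.09 and 1.21 ± 0.961 TP10K. Neighbours in this order all overlapped in the range of their batches.

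CNMa averaged 51.5 ± 45.9 TP10K in AstC-VGlut wells and 17.7 ± 12.7 in gl wells. The next class, AstC-rich with less VGlut, had 6.71 ± 7.85, and all others lay between 3.02 ± 2.97 in ITP-rich wells and 4.95 ± 4.57 in Rh7-positive wells. Ranges overlapped here too. In the highest class both genes changed with the hour, and batches of 1 time point could also differ, as at CT06 with 19.7 and 1.73 TP10K of CNMa. The part of each in the overlap was not tested. The wells and the genes were chosen with such levels in view, so no test is given.

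**Figure D5:**
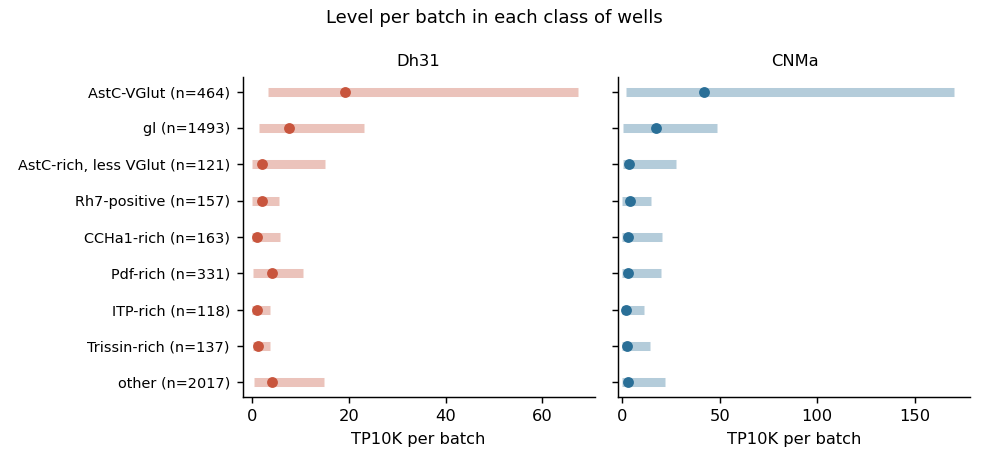
Level of Dh31 (left) and CNMa (right) in each class of kept wells, in TP10K per batch. Dots are the median over batches with at least 3 wells and bars run from the lowest to the highest batch, and n is the number of wells. AstC-VGlut wells have the highest medians, 19.3 TP10K for Dh31 and 42.1 for CNMa.

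Detection alone did not separate the classes well. With every well thinned to 6000 UMIs, Dh31 was seen in 89.4% of AstC-VGlut wells (86.3 to 92.1%), 62.8% of gl wells (60.3 to 65.2%), 70.4% of Pdf-rich wells (65.2 to 75.3%) and 37.3% of ITP-rich wells (28.6 to 46.7%). Before thinning the shares were 94.6%, 81.2%, 82.8% and 74.6%, at median depths of 15814, 18748, 17070 and 18546 UMIs. CNMa was seen after thinning in 91.2% of AstC-VGlut, 76.0% of gl, 66.8% of Pdf-rich and 52.5% of ITP-rich wells. A UMI of either gene was thus common in every class given here. High levels were not, since only 11.8% of Pdf-rich wells had 10 TP10K of Dh31 and 7.55% had 10 TP10K of CNMa, against 61.0% and 71.1% of AstC-VGlut wells.

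The low level in Pdf-rich wells also varied over the day. Where its RNA came from was not tested. Their LD mean of Dh31 was highest at ZT06, 9.59 ± 1.27 TP10K, and lowest at ZT18, 0.383 ± 0.325 (SD, n = 2 batches each), and that of CNMa was highest at ZT14, 12.2 ± 10.4, and lowest at ZT06, 0.387 ± 0.547. The AstC-VGlut wells held more of both genes than the Pdf-rich wells in 13 of 13 LD batches and in 12 of 12 DD batches with at least 3 wells of each. The Pdf-rich level was 18.6% of the AstC-VGlut level of Dh31 in LD and 17.9% in DD by the median over batches, and 6.99% and 7.34% for CNMa. The share was larger where the gene was low. For Dh31 it was 91.8% and 80.6% in the 2 batches of CT14 and 51.6% in batch 2 of CT18, so the trough of Dh31 in DD lay near the level in Pdf-rich wells, while in LD the share reached 41.9% at most. For CNMa it reached 45.2% in batch 1 of ZT02 and 82.1% in batch 1 of CT02. With that level subtracted batch by batch, the fitted difference from trough to peak of Dh31 in LD was 45.5 TP10K with a peak at 3.94 h, against 53.1 and 4.36 h without, and that of CNMa was 60.5 against 68.2. In DD it was 47.8 against 50.1 for Dh31 and 142.7 against 150.3 for CNMa. In gl wells the same step left 2.01 of 7.83 TP10K for Dh31 and 3.92 of 10.7 for CNMa in LD, and moved the peak of Dh31 from 7.07 to 14.8 h. In DD it gave 11.97 against 8.42 TP10K for Dh31 and 17.05 against 27.3 for CNMa.

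The threshold on AstC and VGlut lay on a slope. In 42 wells just inside it, with AstC from 50 to 70 TP10K, Dh31 averaged 6.97 ± 9.58 TP10K (SD over wells) and CNMa 33.0 ± 25.2. In 37 wells just outside, with AstC from 30 to 50 and VGlut of at least 8, they averaged 4.95 ± 4.96 and 9.61 ± 12.9. The 34 wells with enough AstC but VGlut of 4 to 8 had 6.98 ± 11.1 and 15.0 ± 19.98. A few wells outside both populations were rich in 1 of the genes: in wells of no class 13 of 2017 had at least 100 TP10K of Dh31, the highest 422, and 3 had as much CNMa.

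The receptor genes were near the limit of detection in the AstC-VGlut wells. Dh31-R averaged 0.213 ± 0.273 TP10K and CNMaR 0.163 ± 0.266 in AstC-VGlut wells (SD, n = 26 batches), and neither had enough UMIs there to be tested for a rhythm. Dh31-R was at 2.35 ± 1.81 TP10K in Pdf-rich wells (n = 25), the highest class, and at 0.918 ± 0.702 in gl wells (n = 28). CNMaR, whose span overlaps that of fry on the other strand, lay between 0.105 TP10K in Trissin-rich and Pdf-rich wells and 0.302 ± 0.155 in gl wells. In gl wells neither receptor was called cycling (adjusted p from 0.962 to 0.985). The list of 5 class B receptors also holds the PDF receptor gene Pdfr. In AstC-VGlut wells 1 of them was tested in LD and 2 in DD, and in gl wells 5 and 4. None was called. Over all genes tested in LD and DD, 2.4% and 1.35% were called in AstC-VGlut wells and 0.0185% and 0% in gl wells. Pdfr in AstC-VGlut wells had a log2 difference of 1.45 in LD (adjusted p = 0.219) and 1.76 in DD (adjusted p = 0.0750).

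Among 10 genes that process or release peptides, 8 were tested in AstC-VGlut wells and 3 cycled in LD, all with a fitted peak before 12 h. These were amon, which encodes the prohormone convertase that cuts peptide precursors (log2 difference 2.08, peak at 4.08 h, adjusted p = 0.0170), svr, which encodes the carboxypeptidase that trims the cut ends (2.43, 4.60 h, adjusted p = 0.0174), and Sytbeta, a synaptotagmin (2.09, 5.51 h, adjusted p = 0.0377). Other annotated genes overlap svr and Sytbeta, and whether counting used strand is not given in the sources used here. Cycling genes with a peak before 12 h were 1.54% of all tested. The LD mean of svr was 13.5 ± 1.65 TP10K at ZT02 and 2.61 ± 0.823 at ZT14 (SD, n = 2 batches each). In DD, where called genes with a peak before 12 h were 0.583% of all tested, only svr was called (1.96, 2.02 h, adjusted p = 0.0191), and amon and Sytbeta had adjusted p = 0.208 and 0.116. The median log2 difference of the 8 genes was 1.57 in LD and 1.20 in DD, against 0.81 over all genes in each.

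Of 11 other peptide genes Proc alone was called in AstC-VGlut wells, in LD and in DD, where 2.4% and 1.35% of all genes tested were. Proc, which encodes the myotropic peptide proctolin, had a log2 difference of 5.49 in LD with a peak at 5.60 h (adjusted p = 0.00879) and 5.14 in DD with a peak at 4.73 h (adjusted p = 0.00605), at highest time point means of 4.52 and 6.19 TP10K. AstC, by which the wells were chosen, had differences of 0.93 in LD and 0.13 in DD (adjusted p = 0.129 and 0.977). Wells with AstC below the threshold were left out at every time point, so these values cannot tell whether AstC cycles.

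Of 7 clock genes 4 cycled in these wells in LD, where 2.4% of all genes tested did. The activator gene Clk peaked at 1.73 h, and the night-phase genes vri, tim and Pdp1 peaked at 12.3, 14.8 and 15.2 h. Of these 4 the fitted peak of Dh31 at 4.57 h lay nearest that of Clk and the peak of CNMa at 15.2 h nearest those of tim and Pdp1. In DD, where 1.35% of all genes were called, Clk and Pdp1 were called, at 1.67 and 16.2 h, while tim and vri had adjusted p = 0.0806 and 0.0563. The clock list had a median log2 difference of 2.99 in LD and 2.08 in DD.

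The genes most like each peptide were found by Pearson correlation of log2(TP10K + 0.1) across the 26 batches of AstC-VGlut wells, among the 1397 genes whose mean there reached 1 TP10K. Closest to Dh31 was Pka-C1, the catalytic subunit of protein kinase A (r = 0.90), followed by svr (0.85), CG5549 (0.84), cic (0.83) and Pka-R1, a regulatory subunit of protein kinase A (0.83). Pka-C1 ran from 4.53 to 30.2 TP10K over the batches and cycled in LD (peak at 4.22 h, adjusted p = 0.00337, edgeR) and in DD (2.97 h, adjusted p = 0.0216). Closest to CNMa were Pkc53E, a protein kinase C (0.84), CG11030 (0.82), the clock gene Pdp1 (0.80), 2mit (0.77) and Drat (0.76). CNMa itself stood at rank 1391 of likeness to Dh31, with r = -0.73. All 5 genes closest to Dh31 were called cycling in LD and 2 of them, Pka-C1 and svr, in DD. Of the 5 closest to CNMa, CG11030 and Pdp1 were called in LD and all 5 in DD. Over all genes tested 2.4% were called in LD and 1.35% in DD. The genes were picked by likeness to a cycling gene over the same batches, so their calls follow in large part from that choice. The batches share their time points, so any 2 genes with a strong daily change come out as alike or opposed.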

How the data were processed

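Single EGFP-positive neurons were sorted into plates and sequenced by a modified CEL-Seq2 with UMIs. Per the study's methods the authors mapped reads to dm6 with STAR under zUMIs and deposited 1 table of UMI counts over exons per library. The submitters' processing notes name bcl2fastq 2.20. The annotation release and the use of strand are not given in the sources used here. No count exceeded 4096, and spike-in RNA and EGFP, 2.17% and 0.208% of the UMIs of kept wells, did not enter depths or fits.

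The 5001 wells that passed the limits on genes and UMIs were assigned to classes by TP10K or gl UMIs, each to the first class that applied. The order was AstC-VGlut, gl, Pdf-rich, ITP-rich, Trissin-rich, CCHa1-rich, AstC-rich with less VGlut and Rh7-positive. Of 96 well barcodes, 92 occur in every library, and no 2 libraries held identical values. UMIs were summed by batch, and batches with fewer than 3 wells were dropped, which left 13 LD and 13 DD batches of AstC-VGlut wells (batch 2 of ZT22 and batch 2 of CT06 were dropped) and 14 of each for gl wells. Rhythms were tested with edgeR 4.0.16 (R 4.3.3, TMM scaling, filterByExpr, quasi-likelihood test of a cosine and sine of 24 h, Benjamini-Hochberg adjustment over all genes tested). Levels of LD and DD were compared with time point as a covariate, and the 2 populations with batch as a block. DESeq2 1.42.0 was an alternative. Where the Pdf-rich level was subtracted, batches with fewer than 3 Pdf-rich wells were left out. Ratios used 0.5 UMI added to both genes and an exact permutation test over all splits of the batches. Shares carry 95% Clopper-Pearson intervals from scipy 1.17.1. The scripts were tested on simulated data.

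The members and gene lists were chosen with earlier results of these data known. The text names the 2 members, the genes of fixed lists (receptors, class B receptors, peptide processing and release, other peptides, clock) that were called, and the 5 genes most like each member; Pdfr and AstC, and genes called in 1 light regime only, are named beside them as members of those lists chosen after their values were seen. Marker genes VAChT and alrm were not found under those symbols. Alternatives were the filter, the scaling, the tool, the unit, the number of wells per batch, an added minimum on well entropy, stricter well rules (AstC of at least 100 TP10K, at least 3 gl UMIs), the form of the time term, thinning and each batch left out.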

Additional observations from a re-analysis of the deposited data

Results flagged for a closer look

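Among 46 groups of at least 4 libraries of 1 time point, 4 held a library far above the others, where chance alone gives about 1 in 20. CNMa in AstC-VGlut wells at CT18 was 208 TP10K in library 5, which had 4 such wells and belongs to batch 2, while the other 6 of 7 libraries ran from 109 to 149. At ZT22 it was 48.5 TP10K in library 6, with 9 wells in batch 3, against 22.2 to 28.0 in the other 4. Dh31 in gl wells at CT18 was 23.7 TP10K in library 5, with 6 wells in batch 2, against 2.80 to 12.3 in the other 7. At ZT18 it was 16.3 TP10K in library 5, with 14 wells in batch 2, against 1.38 to 6.35 in the other 5.

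Both genes were also singled out because their rhythms differed between AstC-VGlut wells and gl wells in the test with batch as a block. The difference of the fitted curves was 3.26 on the log2 scale for Dh31 and 2.90 for CNMa in LD, and 4.38 and 3.13 in DD.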

How the results depend on the processing

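Of the values that answer a comparison, 187 of those under alternatives other than a left-out batch kept their direction, side of the threshold or size, 29 counts or shares moved, 12 lost a call, 2 gained one and 4 changed sign. The cause of each was not tested.

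The number of cycling genes in AstC-VGlut wells was 411 in LD and 356 in DD without a filter on low counts, 205 and 111 by DESeq2, 340 and 295 with each library as a unit, and 26 and 4 with time point as a factor. In gl wells it was 14 in LD and 25 in DD without the filter, 25 and 3 by DESeq2, 85 and 91 with each library as a unit, and 0 and 1 with time point as a factor. In LD it was also 3 with at least 6 wells per batch or the stricter well rule, 0 with the entropy minimum and 2 without wells rich in other peptides. Leaving out a batch gave 57 to 97 and 24 to 56 cycling genes in AstC-VGlut wells in LD and DD, and 0 to 3 in gl wells in LD, where the lowest count in AstC-VGlut wells was without batch 1 of ZT02 in LD and without batch 1 of CT18 in DD (28 without batch 2 of CT18).

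With time point as a factor the DD rhythms in AstC-VGlut wells were 3.39 for Dh31 and 4.06 for CNMa on the log2 scale. Leaving out a batch gave 3.87 to 4.47 for the LD rhythm of CNMa. The level of Dh31 in DD minus LD was 0.17 with library size scaling and ran from -0.21 to 0.00264 over left-out batches in AstC-VGlut wells, and was -0.045 with each library as a unit in gl wells. That of CNMa in AstC-VGlut wells was 0.51 with each library as a unit.

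For the difference between populations, CNMa in LD was 3.19 by DESeq2 (adjusted p = 0.602), 2.01 with at least 6 wells per batch (adjusted p = 0.0800) and 2.01 to 3.67 over left-out batches. The stricter well rule gave 2.84 for Dh31 in LD (adjusted p = 0.0914) and 2.95 for CNMa in DD (adjusted p = 0.115). With no replicate block the values were 3.30 and 2.47 for Dh31 and CNMa in LD and 4.48 and 3.24 in DD.

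The ratio of Dh31 to CNMa at 2 and 6 h minus 14 and 18 h was 7.18 in LD and 7.28 in DD in AstC-VGlut wells (exact permutation, adjusted p = 0.0571 each, from 4 batches against 4, where the smallest unadjusted p is 0.0286). Over left-out batches the ratio difference was 3.58 to 4.80 in AstC-VGlut wells in DD and 0.70 to 1.62 in gl wells in LD. In gl wells it was 1.68 in LD with the stricter rule, and with the Pdf-rich level subtracted it turned to -4.86 in LD and -4.10 in DD. The share of wells high in both was 19.2% in LD and 21.0% in DD at 20 TP10K in AstC-VGlut wells and 30.4 to 41.2% in LD over left-out batches (lowest without batch 1 of ZT10). With the stricter rule it was 44.7% in AstC-VGlut wells in LD and 14.9% and 20% in gl wells in LD and DD.

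The numbers in the titles were tried as a replicate block. Deviations of same-numbered batches correlated above 0.1 in 5 of 11 pairs in LD and 3 of 4 in DD in AstC-VGlut wells, against 23 of 59 and 15 of 66 pairs of other numbers, and in 7 of 14 and 3 of 4 in gl wells, against 23 of 67 and 15 of 77. Same-numbered batches were thus alike more often, but not in every pair, and the meaning of the numbers is not given, so the fits without the block were kept. With the block 34 genes in LD and 72 in DD were cycling in AstC-VGlut wells and 0 and 60 in gl wells, and the 4 rhythms of Dh31 and CNMa in AstC-VGlut wells kept their calls (adjusted p from 8.24e-09 to 0.00788). In gl wells the blocked rhythm was 1.56 for Dh31 and 0.99 for CNMa in LD and 0.82 and 2.08 in DD on the log2 scale, and neither gene was called (smallest adjusted p = 0.0749, for CNMa in DD).

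Single wells of few UMIs and batches of 3 to 5 wells limit the precision, most at ZT18 batch 1, ZT10 batch 2 and CT06 batch 3 of the AstC-VGlut wells, with 5, 5 and 4 wells.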
